A study of Mus musculus with 6 samples.

Results

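Glycosyltransferases and carbohydrate sulfotransferases are the Golgi enzymes that build and decorate the sugar chains of glycoproteins, glycolipids and proteoglycans. The genes examined here were those whose symbol starts with Chst, B3galt, B3gnt, B4galt, B4galnt, St3gal, St6gal, St8sia, Gcnt, Fut, Galnt, Mgat or Ndst followed by a number, with at least 10 counts in 3 or more of the 6 libraries. That rule matched 91 of 29393 genes in the count table by symbol, and 63 of the 91 met the count minimum. Of the 63, 62 encode proteins and 1, Galnt6os, is an antisense RNA of the Galnt6 locus. The count minimum is a readout of these libraries, but 0 of the 63 genes passed it through one group alone. Just inside the minimum were St8sia6 with 5 to 17 counts per library, Galnt9 with 6 to 15 and B4galt4 with 9 to 31. Just outside were Chst13 with 1 to 18 counts and Gcnt7 with 1 to 11, each at 10 or more in 1 library.

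RNA was sequenced from ex vivo generated mouse double negative T cells, regulatory T cells that carry CD3 and lack the CD4 and CD8 coreceptors on their surface. The study's cells (cDNT) are made from CD4+CD25- T cells of CD45.1 congenic C57BL/6 mice, cultured together with IL-2 and mature dendritic cells, and the libraries are labelled as sorted double negative T cells of adult spleen. The W/ IL-10 group was stimulated with IL-10 at 50 ng/ml for 24 h and the W/O IL-10 group was not, with 3 libraries in each. The study's methods also name CD3 and CD28 antibodies in the 24 h stimulation. The labels describe the other group as W/O IL-10 stimulated, so whether the W/O IL-10 group received the antibodies is not stated. No label says whether the 3 libraries of a group came from separate cultures or mice, so p-values measure only the spread between these libraries, which may be technical. In this bulk RNA, fewer cells of a type and less RNA per cell cannot be told apart.

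Each library held 21619420 to 23967088 counts, so that 3 counts correspond to 0.123 to 0.146 CPM (counts relative to the library's total, scaled with TMM factors). The 11 T cell markers summed to 2362 to 2704 CPM in W/O IL-10 and 2969 to 3093 CPM in W/ IL-10 libraries. Of the 11, 10 had estimates above 0 and 0 were called. Cd5 went the other way, lower W/ IL-10 but under 1.5-fold (log2 fold change -0.47, adjusted p = 0.0467, edgeR's quasi-likelihood test). Cd4 had 8 to 38 counts per library, whereas Cd8a had 2316 to 3786 and Cd8b1 787 to 1521, against the label for the CD8 coreceptor, and Cd8b1 was higher W/ IL-10 (log2 fold change 0.67, adjusted p = 0.0306, edgeR's quasi-likelihood test). The 5 NK cell markers summed to 553 to 586 CPM W/O and 396 to 424 CPM W/ IL-10, but Eomes, which T cells also express, made up 498.3 to 539.1 and 352.8 to 383.5 CPM of these sums. Of the 5, Ncr1 was called lower, Eomes and Klrb1c had estimates below 0, and Klra8 and Klri2 above 0. The 6 B cell markers summed to 63.4 to 157 and 61.3 to 109 CPM, and the 10 dendritic cell markers found to 212 to 350 and 179 to 273 CPM, with Clec9a and Siglech at 3 counts or fewer in every library. Of the 7 dendritic cell markers tested, Itgax was called higher W/ IL-10, Xcr1 had an estimate above 0, and the other 5 (Zbtb46, H2-Ab1, H2-Aa, Cd74 and Ccl22) had estimates below 0 without passing the test. Macrophage markers summed to 27.1 to 34.9 and 31.1 to 34.4 CPM, and erythroid markers to 1.03 to 5.31 and 0.444 to 1.51 CPM. Of the 4 macrophage markers tested, Cd68 had an estimate above 0, Adgre1, Lyz2 and Cd14 had estimates below 0, and 0 were called. The part of these marker levels in the results below was not tested.

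The families act in a sequence. GALNT enzymes start mucin-type O-glycans, GCNT enzymes branch them, and MGAT enzymes set the number of branches on N-glycans. B4GALT, B3GALT and B3GNT enzymes lengthen the branches with galactose and N-acetylglucosamine, and sialyltransferases and fucosyltransferases cap them. NDST and several CHST enzymes instead modify heparan sulfate and chondroitin sulfate, and other CHST enzymes sulfate N-acetylglucosamine. On T cells these chains form selectin ligands, galectin ligands and gangliosides, and their structure changes with activation.

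Chst11 and B4galnt4 were higher and St3gal6 and Galnt18 lower W/ IL-10. These were the 4 of 63 genes (6.35%) that passed an adjusted p under 0.05 and a change of at least 1.5-fold. Over all 14916 tested genes, 1.45% passed, 0.778% higher and 0.677% lower W/ IL-10. The same 4 genes were those with an adjusted p under 0.05 at any fold, against 2.19% of all tested genes. The 3 libraries of one group lay entirely above those of the other in 27 of the 63 genes (42.9%), 12 higher and 15 lower W/ IL-10. The same held for 22.6% of all tested genes, 11.3% higher and 11.2% lower W/ IL-10. The median log2 fold change of the 63 was -0.01, with 31 estimates above 0 and 32 below, and that of all genes was 0.01. Their median absolute log2 fold change was 0.21, and that of all genes was 0.15. The gene families were chosen with earlier results of these data known, so these shares are description only.

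**Figure D1:**
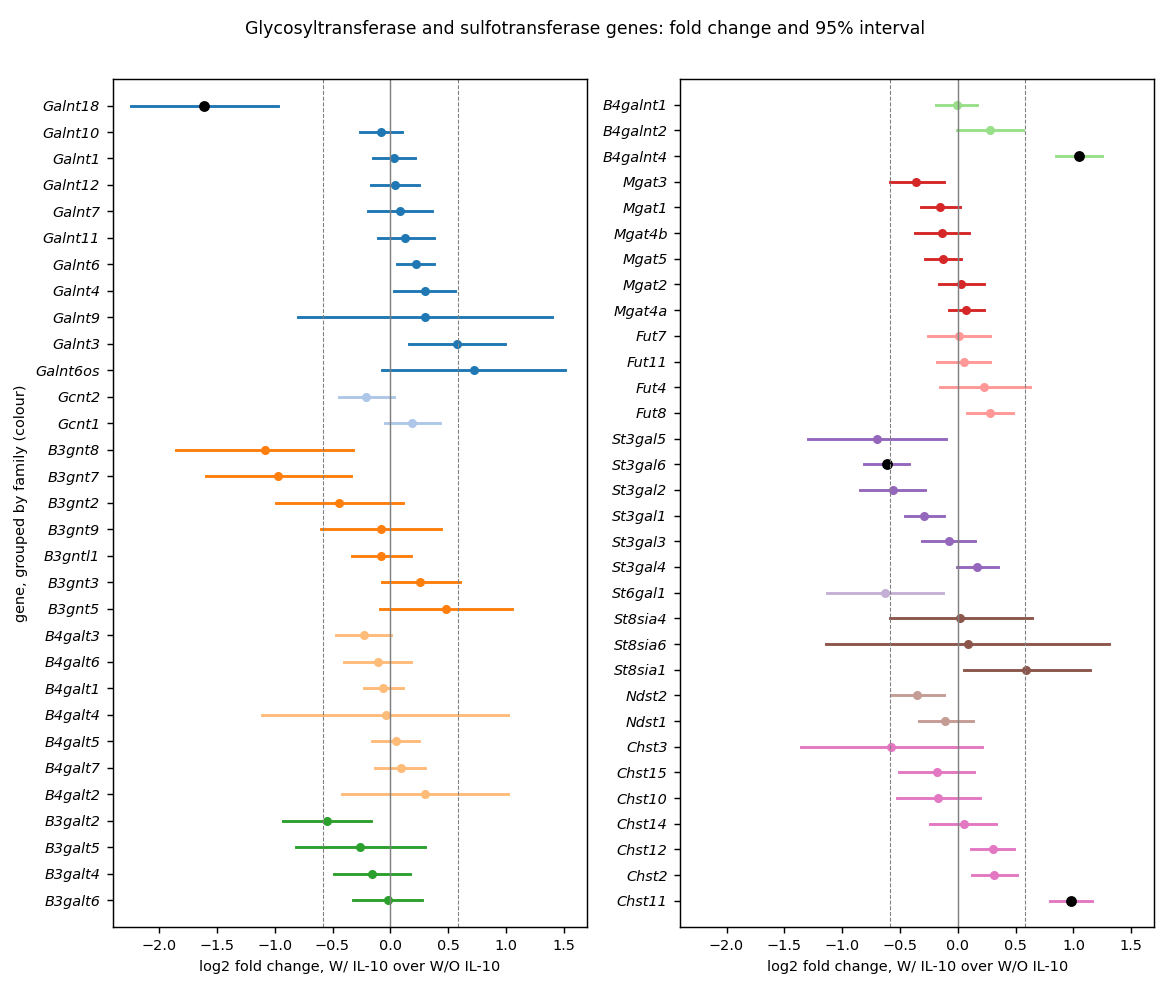
Log2 fold change (W/ IL-10 over W/O IL-10, points) with its 95% interval (lines) from the fit to all genes for the 63 genes, grouped by family in the order of the text; black points are called, dashed lines mark 1.5-fold. Chst11 (0.98) and B4galnt4 (1.05) lie to the right of the dashed lines, and Galnt18 (-1.61) and St3gal6 (-0.61) to the left.

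Promoters are shown for called genes, since their changes passed the test. RefSeq gives start sites for 51 of the 63 genes (71 promoters, GRCm38.p6), Chst11, B4galnt4 and St3gal6 among them and Galnt18 not. Each sequence is the 250 bases before a RefSeq start site on the gene's strand, with capitals marking GC boxes (GGGCGG) or CCAAT boxes (CCAAT) on either strand. For St3gal6 the window before its more distal start is shown. None of the 3 windows overlaps an exon in the GENCODE M21 annotation.
Chst11, chr10:82985247-82985496, plus strand: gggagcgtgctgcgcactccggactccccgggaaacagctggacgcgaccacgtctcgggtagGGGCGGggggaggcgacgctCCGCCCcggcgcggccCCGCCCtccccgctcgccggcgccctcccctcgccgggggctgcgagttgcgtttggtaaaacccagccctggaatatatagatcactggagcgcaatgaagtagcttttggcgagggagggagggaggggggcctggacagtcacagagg
B4galnt4, chr7:141060728-141060977, plus strand: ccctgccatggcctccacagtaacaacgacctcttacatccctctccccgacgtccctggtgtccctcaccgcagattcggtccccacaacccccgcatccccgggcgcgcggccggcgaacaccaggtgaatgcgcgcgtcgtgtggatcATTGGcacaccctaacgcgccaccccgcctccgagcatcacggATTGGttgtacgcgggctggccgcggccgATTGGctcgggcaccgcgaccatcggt
St3gal6, chr16:58524254-58524503, minus strand: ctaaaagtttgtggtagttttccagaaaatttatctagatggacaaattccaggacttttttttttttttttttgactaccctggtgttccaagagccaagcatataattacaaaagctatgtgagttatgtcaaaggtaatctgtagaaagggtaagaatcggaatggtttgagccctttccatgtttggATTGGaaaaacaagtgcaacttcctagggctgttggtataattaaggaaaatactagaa

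The Chst11 window is 70% GC and holds 3 GC boxes, the B4galnt4 window is 67.6% GC and holds 3 CCAAT boxes, and the St3gal6 window is 34.8% GC and holds 1 CCAAT box. The window before the other St3gal6 start, not printed because it overlaps annotated exons, is 64.4% GC and holds 4 GC boxes and 0 CCAAT boxes. GGGCGG occurred in 56.3% of the 71 promoters and in 32.7% of 32851 promoters of all genes, and CCAAT in 33.8% of both. TTCNNNGAA, the half-site pair bound by STAT proteins, which carry the IL-10 receptor signal, was found in 4 of the 71 promoters (5.63%) and in 7.02% of all. Those 4 belong to B3galt5, B4galt1, Gcnt2 and Mgat2, and 0 of the 4 genes were called. Motif matches were counted on both strands, and TTCCNGGAA, which lies within TTCNNNGAA, was in 0 of the 71 and 0.913% of all.

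Among the Galnt genes, Galnt18 was called lower W/ IL-10, and 0 of the others, the antisense RNA Galnt6os included, were called. Galnt18 (chr7:111471661-111779977, minus strand, GRCm38) encodes a GalNAc-transferase family member. Its level was 9.23, 7.82 and 5.81 CPM in W/O IL-10 libraries and 1.75, 3.51 and 2.23 CPM in W/ IL-10 libraries. All 3 W/O libraries lay above all 3 W/ libraries, but the gene is expressed at a low level, 2.96 and 0.97 CPM per kilobase. The decrease was 3.05-fold (log2 fold change -1.61 ± 0.28, SE, n = 3 per group, adjusted p = 0.0276, Benjamini-Hochberg adjustment of edgeR's quasi-likelihood p). The adjusted p was over 0.05, up to 0.176, without W/O IL-10 replicate 2, W/ IL-10 replicate 1 or W/ IL-10 replicate 3.

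Galnt1 and Galnt6 made up most of the Galnt level per kilobase. Galnt1 had 185.0, 199.8 and 209.3 CPM W/O IL-10 and 193.0, 213.1 and 198.9 CPM W/ IL-10, overlapping groups, and its log2 fold change of 0.03 (95% interval -0.15 to 0.21) turned to -0.02 when GC content and gene length were corrected for. Galnt6 ran from 106.4 to 116.2 CPM W/O and from 126.0 to 134.7 CPM W/ IL-10, with groups apart (log2 fold change 0.22, adjusted p = 0.174, edgeR's quasi-likelihood test). With the GC and length correction its adjusted p was 0.0314. Galnt3 stood at 24.6, 32.6 and 44.7 CPM W/O and 52.6, 47.5 and 51.9 CPM W/ IL-10 (log2 fold change 0.58, adjusted p = 0.178, edgeR's quasi-likelihood test). Without W/O IL-10 replicate 3 it was called higher. Galnt6os had 1.84 ± 0.848 CPM W/O and 3.04 ± 0.763 CPM W/ IL-10 (SD, n = 3), and 22.4% of its exonic bases lie opposite another gene's exons. Counts for Galnt6 and Galnt6os cannot be told apart there, because the strand setting of the counting is not stated. Galnt2 had 0 to 4 counts per library and was not a member; 88.0% of its 50-base stretches also occur in another annotated transcript.

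As shares of the level per kilobase summed over the 10 GalNAc-transferase genes, Galnt6os left out, Galnt18 fell from 2.64 ± 0.695% W/O to 0.793 ± 0.279% W/ IL-10, Galnt3 stood at 6.83 ± 1.77% and 9.5 ± 0.624%, and Galnt1 at 31.7 ± 0.686% and 29.9 ± 1.19% (SD, n = 3). With Galnt6os included, the 11 genes summed to 524.0 ± 24.5 CPM W/O and 566.8 ± 6.47 CPM W/ IL-10.

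**Figure D2:**
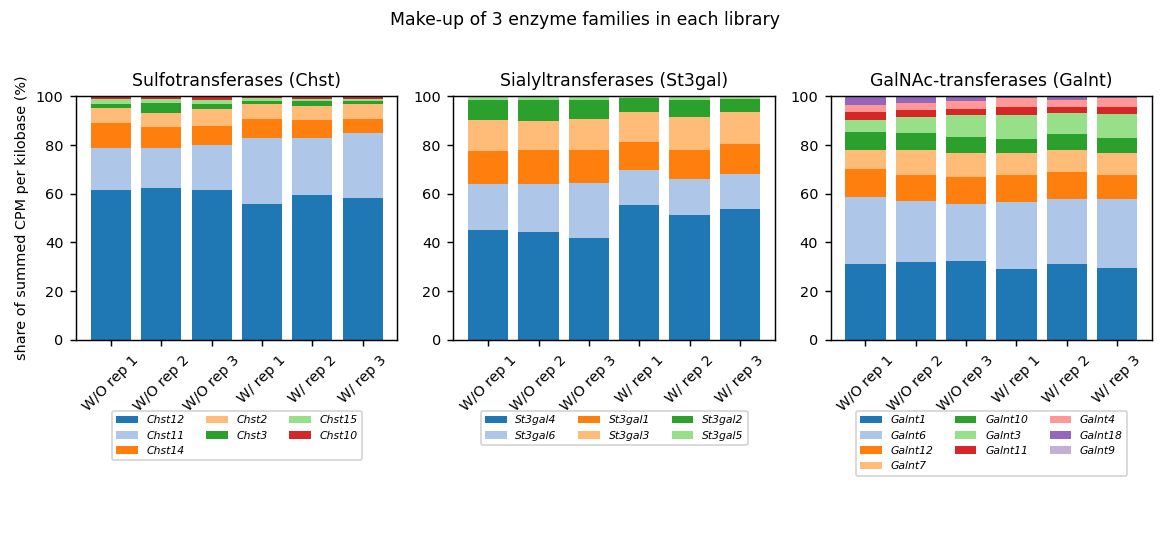
Share (%) of the summed CPM per kilobase that each gene takes within the Chst, St3gal and Galnt families, one bar per library (W/O and W/ IL-10, replicates 1 to 3). Chst11 takes 16.4 to 18.2% of the Chst level W/O and 23.7 to 27.3% W/ IL-10, and St3gal4 takes 41.9 to 45.2% and 51.2 to 55.5% of the St3gal level.

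Neither Gcnt1 nor Gcnt2, which branch O-glycans and poly-N-acetyllactosamine chains, passed the test, although their groups lay apart in opposite directions. Gcnt1 had 43.3, 44.3 and 41.0 CPM W/O IL-10 and 56.5, 45.5 and 44.7 CPM W/ IL-10 (log2 fold change 0.19, or 0.07 with the GC and length correction). Gcnt2 had 13.9 to 14.7 CPM W/O and 12.2 to 12.9 CPM W/ IL-10 (log2 fold change -0.21, or -0.22 with that correction).

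Among the 7 B3gnt genes, grouped by symbol and including enzymes that add N-acetylglucosamine to growing chains, the estimates ran from -1.08 to 0.48 and 0 were called. B3gnt7, whose product extends sulfated poly-N-acetyllactosamine, had 3.47, 3.06 and 2.33 CPM W/O IL-10 and 1.36, 1.24 and 1.93 CPM W/ IL-10, which is -0.97 as a log2 fold change (adjusted p = 0.129, edgeR's quasi-likelihood test). B3gnt8 had 1.31, 2.19 and 2.07 CPM W/O and 0.632, 0.933 and 1.05 CPM W/ IL-10 (log2 fold change -1.08, adjusted p = 0.165). All W/O libraries exceeded all W/ libraries for both genes, at counts of 28 to 85 and 13 to 53. Of the exonic bases of B3gnt8, 18.1% lie opposite Bckdha, itself at 11.6 ± 1.54 CPM W/O and 9.25 ± 0.66 CPM W/ IL-10 (SD, n = 3). Bckdha was also lower in every W/ library (log2 fold change -0.33, adjusted p = 0.307, edgeR's quasi-likelihood test). The part of Bckdha RNA in the B3gnt8 counts was not tested, since the strand setting is not stated. B3gnt5, which starts lacto-series glycolipids, stood at 7.93, 16.7 and 17.6 CPM W/O and 20.4, 19.4 and 19.1 CPM W/ IL-10 (log2 fold change 0.48, adjusted p = 0.424), with W/O IL-10 replicate 1 below the rest. With the GC and length correction the B3gnt5 log2 fold change was 0.28. B3gnt3 had 6.83 to 7.71 CPM and 7.93 to 10.3 CPM, groups apart, and B3gnt2 2.12 to 2.61 and 1.53 to 1.99 CPM, also apart. For B3gnt2, 64.0% of the 50-base stretches also occur in another gene's transcripts, so its counts are uncertain. B3gntl1 had the highest level per kilobase in the family, 5.61 W/O and 5.32 W/ IL-10.

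The B4galt genes, which add galactose to N-acetylglucosamine, glucose or xylose, held similar summed levels in both groups. B4galt1 had 241.4, 243.3 and 255.0 CPM W/O IL-10 and 244.0, 220.6 and 244.0 CPM W/ IL-10 (log2 fold change -0.06, 95% interval -0.23 to 0.11), and was the highest of the 7 W/O IL-10 at 58.2 CPM per kilobase, followed by B4galt5 at 56.5. W/ IL-10 they stood at 55.8 and 58.4. The 7 estimates ran from -0.23 to 0.30, 0 were called and 0 had groups apart. Their summed level was 587.1 ± 17.6 CPM W/O and 581.9 ± 12.3 CPM W/ IL-10 (SD, n = 3).

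All 4 B3galt estimates were below 0, or 3 of 4 with the GC and length correction and without W/O IL-10 replicate 1 or W/ IL-10 replicate 3, and 0 were called. B3galt2, a galactosyltransferase that makes type 1 chains, had 10.4, 14.1 and 11.9 CPM W/O IL-10 and 9.47, 8.57 and 6.88 CPM W/ IL-10 (log2 fold change -0.55, adjusted p = 0.157, edgeR's quasi-likelihood test). The groups lay apart, and the transcript is 35.5% GC, the lowest of the 63 genes. With GC content and gene length corrected for, its log2 fold change was -0.96 and its adjusted p 0.0434, so that B3galt2 was called lower. It was also called without W/O IL-10 replicate 1. B3galt4, which makes the ganglioside GM1, was highest per kilobase, at 6.75 and 6.05, with overlapping groups.

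B4galnt4 was higher W/ IL-10, while B4galnt1, the gene with the highest level per kilobase of the 63, stayed within the spread of its libraries. B4galnt4 (chr7:141061104-141072400, plus strand) encodes an enzyme that adds N-acetylgalactosamine to N-acetylglucosamine on glycoprotein chains. Its level was 29.1, 26.3 and 28.5 CPM in W/O IL-10 libraries and 56.7, 54.8 and 62.5 CPM in W/ IL-10 libraries. The lowest W/ library thus exceeded the highest W/O library by far more than either group's spread. The increase was 2.08-fold (log2 fold change 1.05 ± 0.09, SE, n = 3 per group, adjusted p = 0.00101, Benjamini-Hochberg adjustment of edgeR's quasi-likelihood p). B4galnt1, the GM2 and GD2 ganglioside synthase, had 592.5, 586.4 and 616.8 CPM W/O and 562.4, 593.7 and 629.7 CPM W/ IL-10. The log2 fold change of B4galnt1 was -0.01 (95% interval -0.19 to 0.17), it became 0.11 under the GC and length correction, and 20.7% of its exonic bases lie opposite Slc26a10, itself at 20.4 to 28.4 CPM. Per kilobase, B4galnt1 stood at 173.3 and 172.3 CPM and B4galnt4 at 7.26 and 15.1 CPM. B4galnt4 therefore took 3.79 ± 0.187% of the family's summed level per kilobase W/O and 7.51 ± 0.332% W/ IL-10 (SD, n = 3). B4galnt2 had overlapping groups and a log2 fold change of 0.28.

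**Figure D3:**
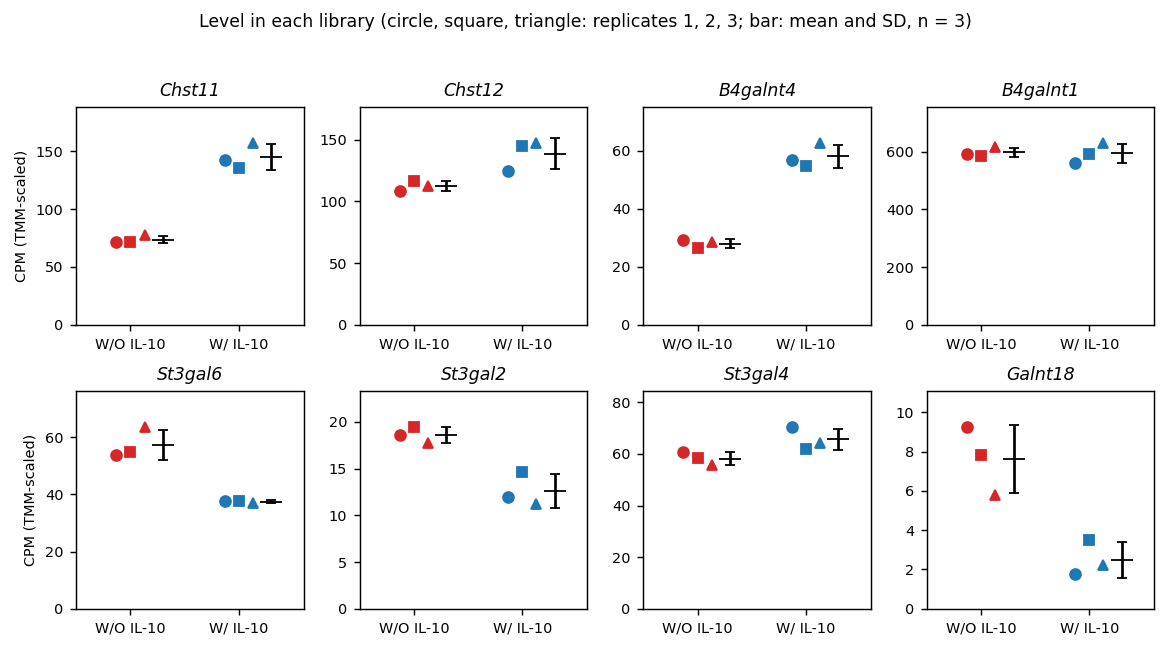
TMM-scaled CPM of 8 genes in each of the 6 libraries (red W/O IL-10, blue W/ IL-10; circle, square and triangle for replicates 1, 2 and 3), with the mean and SD (n = 3) in black and every axis starting at 0. Chst11 lies at 71.6 to 77.3 CPM W/O and 135.3 to 156.9 CPM W/ IL-10, St3gal6 at 53.7 to 63.5 and 37.0 to 37.8 CPM, and the B4galnt1 groups overlap.

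None of the 6 Mgat genes was called. Of them 3, Mgat1, Mgat3 and Mgat5, were lower in all W/ IL-10 libraries, as were 11.2% of all tested genes. Mgat3, which adds the bisecting N-acetylglucosamine, had 93.2, 76.5 and 73.5 CPM W/O IL-10 and 68.9, 62.1 and 59.2 CPM W/ IL-10 (log2 fold change -0.36, adjusted p = 0.149, edgeR's quasi-likelihood test). Mgat1, which opens the way to hybrid and complex N-glycans, ran from 238.5 to 261.4 CPM W/O and 215.9 to 227.7 CPM W/ IL-10 (log2 fold change -0.15, adjusted p = 0.389). Mgat5, the branching enzyme whose products bind galectins, ran from 208.3 to 221.8 CPM and from 191.7 to 200.7 CPM (log2 fold change -0.13, adjusted p = 0.431). The groups of these 3 genes did not touch, but each change was below 1.5-fold. With the GC and length correction the log2 fold changes were -0.27 for Mgat3, -0.05 for Mgat1 and -0.07 for Mgat5. The family's summed level, without that correction, was 785.4 ± 13.1 CPM W/O and 726.3 ± 10.7 CPM W/ IL-10 (SD, n = 3). Each of the 3 W/ sums was below each W/O sum.

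The 4 Fut estimates ran from 0.01 to 0.28, with 0 called. Under upper-quartile scaling, and without W/O IL-10 replicate 3, W/ IL-10 replicate 2 or W/ IL-10 replicate 3, 3 of the 4 were above 0, and without W/O IL-10 replicate 2, 2 of the 4. Fut8, the core fucosyltransferase of N-glycans, had 94.8, 79.6 and 82.4 CPM W/O IL-10 and 112.2, 98.4 and 101.0 CPM W/ IL-10 (log2 fold change 0.28, adjusted p = 0.183, edgeR's quasi-likelihood test). Its groups lay apart and its level per kilobase was the highest of the family, 10.8 and 13.1. Without W/O IL-10 replicate 1 its adjusted p was 0.0323. With the GC and length correction its log2 fold change was 0.18 and its adjusted p 0.489 (same test). Fut7, the fucosyltransferase of the sialyl Lewis x selectin ligand, had overlapping groups and a log2 fold change of 0.01 (95% interval -0.26 to 0.28). Fut4 had 3.72 to 4.18 CPM W/O and 4.26 to 5.17 CPM W/ IL-10.

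Among the sialyltransferases that attach sialic acid to galactose, 5 of 6 St3gal estimates were below 0 (4 of 6 with the GC and length correction) and 1 gene, St3gal6, was called lower W/ IL-10. St3gal6 (chr16:58468125-58524243, minus strand), whose product caps N-acetyllactosamine, had 53.7, 54.9 and 63.5 CPM in W/O IL-10 libraries and 37.8, 37.7 and 37.0 CPM in W/ IL-10 libraries. The W/ libraries were nearly equal and all lay below the lowest W/O library. The decrease was 1.53-fold (log2 fold change -0.61 ± 0.09, SE, n = 3 per group, adjusted p = 0.0125, Benjamini-Hochberg adjustment of edgeR's quasi-likelihood p). The call is close to its limits: the log2 fold change was -0.55, under 1.5-fold, without W/O IL-10 replicate 3, and the adjusted p was 0.0561 to 0.104 when any one W/ IL-10 library was left out. Exons of Dcbld2 lie opposite 26.0% of the exonic bases of St3gal6, and Dcbld2 itself stood at 2.67 to 4.21 CPM W/O and 2.84 to 3.89 CPM W/ IL-10.

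St3gal2, which sialylates glycolipids and O-glycans, had 18.6, 19.4 and 17.7 CPM W/O IL-10 and 11.9, 14.6 and 11.2 CPM W/ IL-10 (log2 fold change -0.56, adjusted p = 0.0613, edgeR's quasi-likelihood test). St3gal1, which caps core O-glycans, had 42.3, 43.3 and 41.3 CPM W/O and 34.8, 34.5 and 34.5 CPM W/ IL-10 (log2 fold change -0.29, adjusted p = 0.0993). St3gal5, the GM3 synthase, had 1.72 to 2.0 CPM W/O and 0.972 to 1.33 CPM W/ IL-10 (log2 fold change -0.70, adjusted p = 0.262). Groups of these 3 genes lay apart, all lower W/ IL-10, without passing the test. The same separation held for 11.2% of all tested genes. With the GC and length correction the log2 fold changes were -0.47 for St3gal2, -0.22 for St3gal1 and -0.63 for St3gal5. DESeq2 gave St3gal2 an adjusted p of 0.00742, and its fold change stayed under 1.5. St3gal4, the highest of the family per kilobase at 19.9 and 22.4, went the other way, with 60.7, 58.3 and 55.6 CPM W/O and 70.3, 62.1 and 64.4 CPM W/ IL-10 (log2 fold change 0.17, adjusted p = 0.356). St3gal4 made up 43.7 ± 1.68% of the summed St3gal level per kilobase W/O and 53.5 ± 2.12% W/ IL-10, and St3gal6 20.4 ± 1.97% and 14.5 ± 0.326% (SD, n = 3). The summed level of the 6 genes was 193.0 to 196.2 CPM W/O and 162.8 to 170.7 CPM W/ IL-10.

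St6gal1, which adds sialic acid in another linkage and is abundant in B cells, had 7.19, 10.4 and 7.75 CPM W/O IL-10 and 4.18, 6.88 and 5.26 CPM W/ IL-10 (log2 fold change -0.63, adjusted p = 0.218, edgeR's quasi-likelihood test). With no filter on low counts its adjusted p was 0.0312. The 6 B cell markers summed to 63.4, 157.3 and 106.7 CPM in the same W/O libraries and 62.8, 108.7 and 61.3 CPM in the W/ libraries. Replicate 2 was the highest of each group for both, and the part of B cell RNA in the St6gal1 level was not tested.

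Of the St8sia genes, which add further sialic acids, 0 of 3 were called and 0 had groups apart. St8sia1, the GD3 synthase, had 4.54, 4.88 and 7.67 CPM W/O IL-10 and 10.3, 6.71 and 8.72 CPM W/ IL-10 (log2 fold change 0.59, adjusted p = 0.291, edgeR's quasi-likelihood test). St8sia4, the polysialyltransferase of lymphocytes, ranged from 28.1 to 63.3 CPM within the W/O group alone and from 41.2 to 61.3 CPM in the W/ group. Its log2 fold change of 0.02 (95% interval -0.59 to 0.64) was -0.24 under the GC and length correction and -0.27 without W/O IL-10 replicate 1.

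Heparan sulfate N-deacetylase/N-sulfotransferases had estimates below 0. Ndst2 had 77.7, 73.8 and 62.4 CPM W/O IL-10 and 60.7, 54.1 and 53.4 CPM W/ IL-10, with groups apart (log2 fold change -0.35, adjusted p = 0.132, edgeR's quasi-likelihood test). Ndst1 had overlapping groups and a log2 fold change of -0.11. With the GC and length correction the log2 fold changes were -0.24 for Ndst2 and -0.01 for Ndst1.

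Chst11, a chondroitin 4-O-sulfotransferase, was higher W/ IL-10 and was the sulfotransferase with the smallest adjusted p. Chst11 (chr10:82985498-83195900, plus strand) had 71.9, 71.6 and 77.3 CPM in W/O IL-10 libraries and 142.5, 135.3 and 156.9 CPM in W/ IL-10 libraries. Every W/ library stood well above every W/O library. The increase was 1.97-fold (log2 fold change 0.98 ± 0.08, SE, n = 3 per group, adjusted p = 0.000932, Benjamini-Hochberg adjustment of edgeR's quasi-likelihood p). Chst12, which catalyses the same sulfation, had 108.7, 116.7 and 112.2 CPM W/O and 124.3, 144.6 and 147.0 CPM W/ IL-10, groups apart (log2 fold change 0.30, adjusted p = 0.121), and an adjusted p of 0.0309 after the GC and length correction. Per kilobase Chst12 was the higher of the pair in both groups, at 47.6 and 58.7 CPM against 13.3 and 26.2 CPM for Chst11. The Chst11 share of their summed level per kilobase was 21.9 ± 1.00% W/O and 30.9 ± 2.18% W/ IL-10 (SD, n = 3).

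Chst2, which sulfates N-acetylglucosamine in selectin ligands, had 34.0, 34.7 and 38.7 CPM W/O IL-10 and 42.6, 44.1 and 47.0 CPM W/ IL-10 (log2 fold change 0.31, adjusted p = 0.122, edgeR's quasi-likelihood test). Chst3, a chondroitin 6-O-sulfotransferase, had 7.76, 19.9 and 11.9 CPM W/O and 6.51, 12.4 and 7.54 CPM W/ IL-10, overlapping groups in which replicate 2 was highest each time, as it was for the B cell marker sum. The estimates of Chst10, Chst14 and Chst15 lay between -0.18 and 0.05. The 7 Chst genes summed to 270.5 ± 10.5 CPM W/O and 370.2 ± 21.8 CPM W/ IL-10 (SD, n = 3), most of the difference being that of Chst11 and Chst12.

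Base composition moved with the fold changes in all genes. The median log2 fold change was 0.376 for the 140 tested genes of at most 36% GC and -0.125 for the 542 above 60% GC. The 8 members of up to 44% GC had a median log2 fold change of 0.09, and -0.04 after correction, and the 16 above 56% GC had -0.08 and 0.03. The 4 called genes kept their direction after the correction, with log2 fold changes of 1.02 for Chst11, 1.17 for B4galnt4, -0.69 for St3gal6 and -1.52 for Galnt18.

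**Figure D4:**
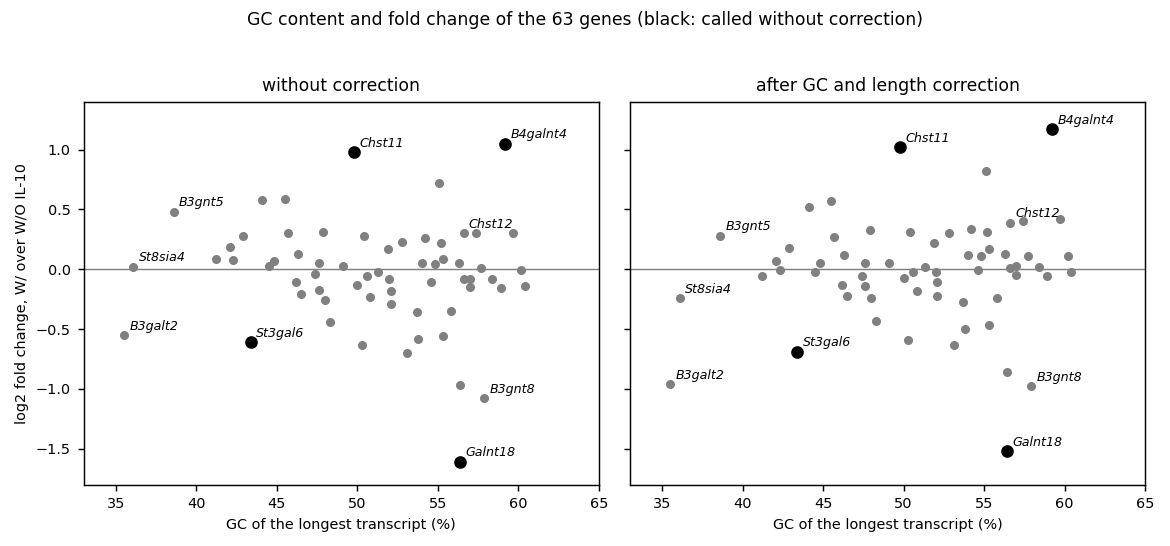
GC content (%) of each gene's longest transcript against its log2 fold change (W/ over W/O IL-10) before (left) and after (right) correction for GC content and gene length, one point per gene, 63 genes, called genes in black. B3galt2 at 35.5% GC moves from -0.55 to -0.96, and the black points stay on their side of 0.

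Of 147 other gene symbols listed for glycan synthesis, sugar donors, removal and carriers, aliases included, 124 were tested. The lists were chosen with earlier results of these data known. Of the 124 genes, 5 were called (4.03%), 3 higher and 2 lower W/ IL-10, against 1.45% of all tested genes. Without W/ IL-10 replicate 3, 0 were called, and without W/O IL-10 replicate 2 or W/ IL-10 replicate 1 Xylt1 alone was. Both Xylt1 and Ust were called without W/ IL-10 replicate 2 and without W/O IL-10 replicate 3, whereas Hpse and Man1c1 were not. Within the 26 tested genes of glycosaminoglycan chains, Ust, which sulfates uronic acid in chondroitin and dermatan sulfate, had 13.4, 11.6 and 12.4 CPM W/O and 22.9, 21.6 and 28.8 CPM W/ IL-10 (log2 fold change 0.97, adjusted p = 0.0112, edgeR's quasi-likelihood test). Xylt1, which places the first xylose of the chain on core proteins, had 12.5, 12.9 and 14.6 CPM W/O and 6.75, 5.95 and 6.05 CPM W/ IL-10 (log2 fold change -1.09, adjusted p = 0.00565). Hpse, the heparanase gene, had 3.43 to 4.45 CPM and 6.51 to 7.37 CPM (log2 fold change 0.82, adjusted p = 0.0447), and was not called under upper-quartile scaling. The groups of these 3 genes lay apart. Chsy1, a chondroitin synthase, ran from 201.0 to 249.2 CPM W/O and 303.2 to 330.4 CPM W/ IL-10, higher in every W/ library but below 1.5-fold (log2 fold change 0.48, adjusted p = 0.0438, edgeR's quasi-likelihood test).

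Of the other lists, Man1c1, a Golgi mannosidase, was called among the 8 N-glycan trimming genes, with 20.2 to 21.3 CPM W/O and 12.3 to 14.6 CPM W/ IL-10 (log2 fold change -0.63, adjusted p = 0.0233, edgeR's quasi-likelihood test). With the GC and length correction its log2 fold change was -0.52, under 1.5-fold. In 5 further lists 0 genes were called: core O-glycan and O-GalNAc sialylation (9 tested), sugar and sulfate donors (21), Golgi donor transporters (16), the O-fucose, O-mannose, O-GlcNAc and glycolipid start genes (17) and lysosomal and surface removal (15). The most abundant per kilobase in those lists included Ugcg, the glucosylceramide synthase, at 109.5 and 142.7 CPM (log2 fold change 0.38, adjusted p = 0.159), and Lfng at 106.6 and 139.6 CPM (0.39, adjusted p = 0.0819, edgeR's quasi-likelihood test).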

How the data were processed

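Raw read counts per Ensembl gene were deposited by the authors for 6 libraries, with no normalization. The labels name HISAT2, HTSeq and GRCm38 and a TruSeq kit, the paper's methods name TopHat, Cufflinks and another kit, and neither gives the strand setting. Counts were scaled by TMM factors (CPM, computed here) and tested with edgeR 4.0.16 (glmQLFit, glmQLFTest, no covariates) in R 4.3.3 over 14916 genes with at least 10 counts in 3 or more libraries. Genes were called at a Benjamini-Hochberg adjusted p under 0.05 over all tested genes and an unshrunken change of at least 1.5-fold. Members and lists were chosen with earlier results of these data known. Named genes were those past the adjusted p, then those with groups apart or a change of 1.5-fold, by p, the highest per kilobase of each family, and those nearest the count minimum. Galnt2, B4galt5, B4galnt2, Fut7, Ndst1, Chst3, Chst10, Chst14, Chst15 and the genes with a STAT motif were added after their values were seen. Groups came from the labels. Exon lengths, GC and overlaps came from GENCODE M21, promoters from RefSeq GRCm38.p6. Alternatives were DESeq2 1.42.0, limma-voom 3.58.1, upper-quartile factors, other count filters, a 1.5-fold null (glmTreat), a replicate block, a GC and length correction, and each library left out. The main fit, DESeq2, limma-voom and the replicate block were also run on simulated data, and the other steps were not. Intervals and limits cover counting error and spread between libraries only. The design text speaks of duplicates, but 3 libraries per group were analysed. An exact permutation test of 3 against 3 cannot go below p = 0.1 and was not used. Of the other glycan genes called, 1 is counted but not reported here.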

Additional observations from a re-analysis of the deposited data

How the results depend on the processing

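Over all genes, 217 were called, against 359 with DESeq2, 639 with no count filter, 333 with the GC and length correction and replicate block together, 15 with 1.5-fold as the null, and 35 to 251 when 1 library was left out. Of the 63 glycosylation genes 4 were called, 7 with no filter (B3gnt7, Chst3 and St6gal1 added) and 5 with the GC and length correction (B3galt2 added). With 1.5-fold as the null 1 was called (B4galnt4), and without 1 library 2 to 5 were. At an adjusted p under 0.05 at any fold there were 4, against 13 with no filter, 6 with DESeq2 (Galnt3 and St3gal2 added) and 7 with the GC and length correction. There were 12 with correction and replicate block, 1 with the 1.5-fold null, and 2 to 7 without 1 library. The other glycan genes called were 5, 0 with the 1.5-fold null, and 0 (without W/ IL-10 replicate 3) to 6 without 1 library. Chst11 and B4galnt4 were called in every single-library omission; Galnt18 was lost without W/O IL-10 replicate 2, W/ IL-10 replicate 1 or W/ IL-10 replicate 3, and St3gal6 without any one of the W/ IL-10 libraries or without W/O IL-10 replicate 3. A tally covered 35 genes, those named for adjusted p, separation, fold change or level per kilobase. Genes nearest the count minimum and those added later were left out of it. Over the 35, 496 of 525 alternative values kept direction and call. Within the 35 the direction reversed for B4galnt1 (0.11 under both corrections, -0.05 to 0.03 without 1 library), Galnt1 (-0.02 under both, -0.03 to 0.06 without 1 library) and St8sia4 (-0.24 and -0.25, -0.27 to 0.22 without 1 library), and the cause was not tested. Other members also changed sign, among them Fut7 (-0.06 to 0.09 without 1 library) and St3gal3 (-0.08, and 0.02 with the GC and length correction). Counts of 13 to 85 behind B3gnt7 and B3gnt8 limit what can be told of them.

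With a replicate block in the fit, 196 genes and the same 4 members were called. Hpse was lost (adjusted p = 0.0807), and with block and GC and length correction together B3galt2 and St6gal1 were called as well (adjusted p = 0.043 for St6gal1). Same-numbered libraries deviated with correlations of 0.0524, -0.0573 and 0.114, so that the numbers are not shown to pair the libraries. The block was used as an alternative only.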
